A study of Homo sapiens with 4 samples.

Results

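Antisense RNAs are described here that are named for a neighbouring gene, with a symbol made of that gene's symbol, -AS and a number. The table of normalised counts held 183 such rows among 56832. The 62 of them with a mean of at least 50 normalised counts over the 4 libraries are the subject. A normalised count is a gene's number of reads divided by 1 factor per library. The host of an antisense RNA is the gene in its name, and 55 of the 62 had a host with a row of its own. The hosts are given for reference.

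RNA was sequenced from A375, an established human melanoma cell line of wild-type genotype per the labels, grown in DMEM with 10% FBS. For 48 h, cells on 100 mm plates were given 1 mM octanoate, which is a fatty acid of medium chain length, or the vehicle isopropanol. Each group had 2 libraries, and both groups were of this 1 line. The labels do not say whether the libraries came from separate cultures, so p-values measure the spread between these libraries, which may be technical.

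Antisense RNAs are transcribed from the DNA strand opposite to another gene. Many start beside that gene's promoter and run away from it, and others cross its exons. Some are known to act on their neighbour, to bind microRNAs or proteins, or to serve as the precursor of small nucleolar RNAs, while most have no settled function. A shared name states a position on the chromosome and says nothing of control.

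The 4 libraries held 67785956 to 78005035 recovered reads. The 62 antisense RNAs took 60068 and 58767 of them in vehicle and 66092 and 56127 in octanoate, which was 0.0781% and 0.0787% against 0.0847% and 0.0828%. Of 8 melanocyte lineage markers, 7 had a mean of at least 10. SOX10 had a mean of 38100 normalised counts and S100B of 2910, while PMEL had 81.3, MLANA 43.9 and TYR 2.97, so the pigmentation genes of the lineage were low in this line. MITF was 3530 and 3330 in vehicle and 2410 and 2510 in octanoate, and S100B was 4230 and 3740 against 1920 and 1750. PMEL was higher in octanoate, at 98.2 and 95.4 against 65.8 and 65.9. The summed level of 3 keratinocyte markers was 1120 and 949 in vehicle against 269 and 221 in octanoate, nearly all of it KRT14, with KRT1 at 0. The sum of 3 endothelial markers was 207 and 201 against 347 and 338. PECAM1 had 121 and 122 against 249 and 221, and VWF 65.8 and 63.9 against 89.5 and 95.4. CDH5 did not follow, at 20.6 and 14.5 against 8.66 and 21.7. Sums of 3 blood markers lay between 22.1 and 30.4 and those of 3 fibroblast markers between 827 and 895. These marker changes moved with the treatment, and their part in the results below was not tested. A change in cell make-up and a change in RNA per cell cannot be told apart in such bulk samples.

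The antisense RNAs spanned a wide range of levels. LRRC75A-AS1, the precursor of several small nucleolar RNAs and named SNHG29 in RefSeq, had a mean of 27393 normalised counts and held 45.6% of the sum over the 62. OIP5-AS1, a cytoplasmic RNA known to bind a microRNA, followed at 8751. GABPB1-AS1 had 2231, EPB41L4A-AS1 1875, CTBP1-AS1 1352, BAIAP2-AS1 1324, PAX8-AS1 1141 and COX10-AS1 1140. The median over the 62 was 233, and 54 had a mean under 1000. These means chose the members and are a description. Just inside the limit of 50 were CIRBP-AS1 at 50.9 and BTG3-AS1 at 52.4. Just outside were MIF-AS1 at 49.2, AGAP2-AS1 at 48.2 and HOXD-AS2 at 47.3. CIRBP-AS1 and PTOV1-AS1 passed with an octanoate mean under 50. Of the 121 rows below the limit, 7 were at 0 in every library.

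Gene models of GENCODE release 29 on GRCh38 held 53 of the 62 antisense RNAs by symbol. Of these, 39 carried the type antisense, 11 processed transcript and 2 lincRNA, and TP73-AS1 that of a transcribed unitary pseudogene. RefSeq also lists TP73-AS1 as a transcribed pseudogene, under the name GFOD3P. Exons of 43 of the 53 overlapped an exon on the other strand. The overlap covered 0.4% to 57.6% of their exonic bases, with a median of 11.9%, and exceeded 50% in A1BG-AS1 alone. In 37 of the 54 pairs with start sites compared, the antisense RNA and its host started on opposite strands at most 1000 bases apart, and in 25 at most 200 bases apart. RefSeq lists 12 of the 62 under another symbol. In 8 of these it ends in -DT, for a divergent transcript, among them those of CEBPA-AS1, BAIAP2-AS1, CTBP1-AS1, COX10-AS1 and FLVCR1-AS1. Stretches of at least 100 bases at 95% identity or more with another gene were found in 10 of the 53, so that reads of these could be split. The longest was 528 bases of TPT1-AS1 at 98.7% identity to RCN1, and FRMD6-AS1 shared stretches with 68 genes.

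Octanoate changed 15 of the 62 antisense RNAs, of which 9 rose and 6 fell (limma, Benjamini-Hochberg adjusted p under 0.05 over all 20250 genes tested). Called genes were 29.9% of all genes tested and 36.5% of the 15069 whose mean reached 50, against 24.2% of the antisense RNAs. By direction, 16.2% of all genes tested were higher and 13.7% lower, and 19.7% and 16.8% of those with a mean of 50 or more. The antisense RNAs thus stood at or below the background. The median log2 difference of octanoate from vehicle over the 62 was -0.017, beside 0.001 over the genes whose mean reached 50. The range ran from -0.85 for SERTAD4-AS1 to 1.59 for ADIRF-AS1. The median absolute difference was 0.18, beside 0.16. Groups did not overlap in 35 of the 62, or 56.5%, beside 68.4% of the genes whose mean reached 50. The authors' deposited table had an adjusted p under 0.05 for 7 of the 62, all of them among the 15, with a background of 28.2%. Counts of calls changed with the test. On the recovered reads DESeq2 called 6 of the 62, with a background of 27.8%, and edgeR called 14, with a background of 39.5%.

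**Figure D1:**
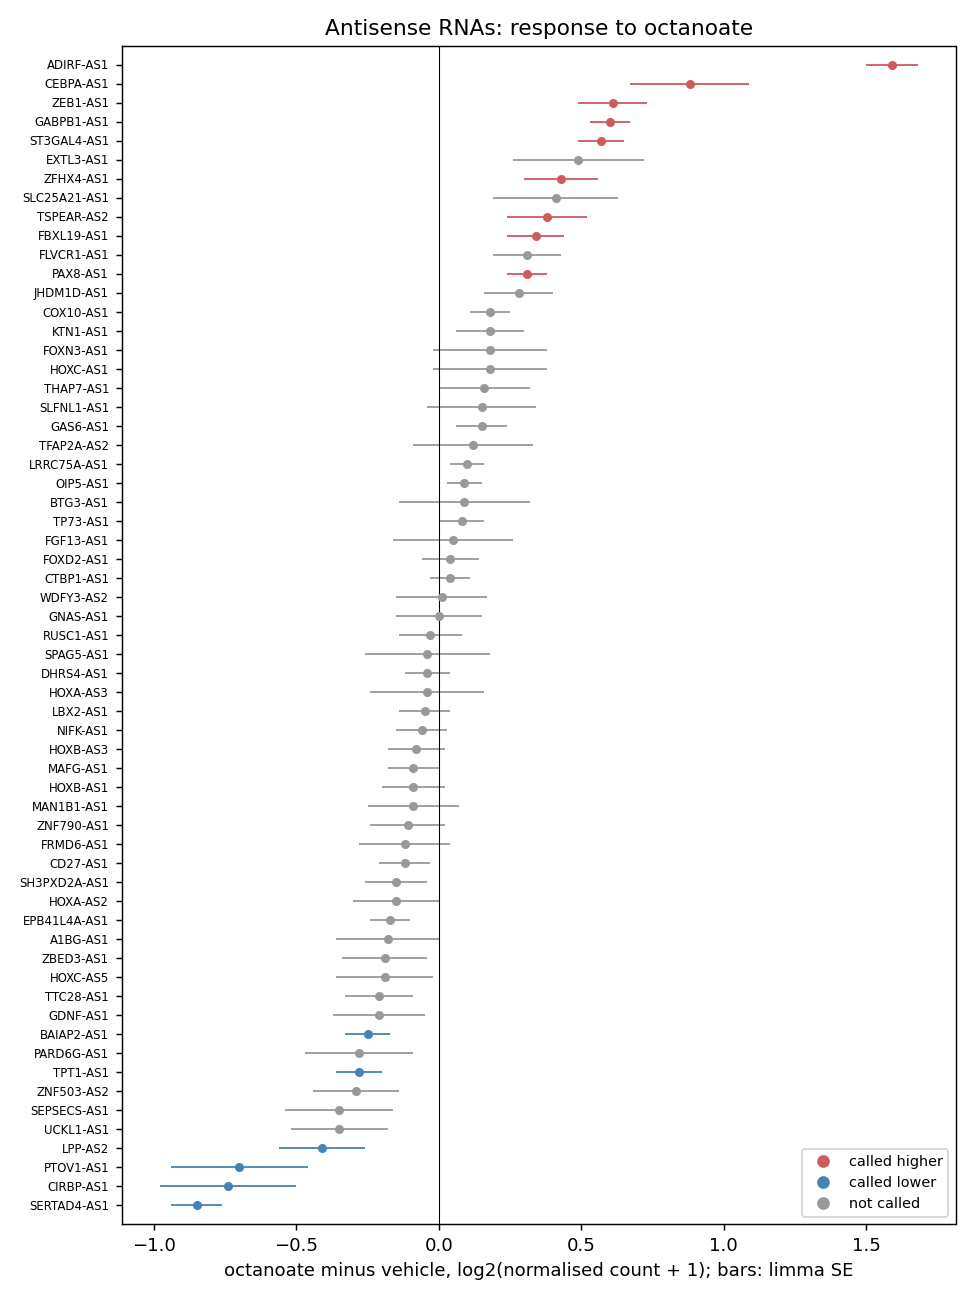
Log2 difference of octanoate from vehicle for 61 of the 62 antisense RNAs, on the log2(normalised count + 1) scale, in order of size. Points are limma estimates over 2 libraries a group and bars their standard errors; red marks the 9 called higher, blue the 6 called lower and grey the 46 drawn that were not called. ADIRF-AS1 at 1.59 stands apart at the top and SERTAD4-AS1 at -0.85 is lowest.

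Shares called differed by level. Of the 16 antisense RNAs with a mean from 50 to 100, limma called 3, or 18.8%, beside 21.7% of all genes at that level. Of the 38 from 100 to 1000 it called 9, or 23.7%, beside 38.6%. Of the 8 at 1000 or more it called 3, or 37.5%, beside 38.1%. The share thus lay below the background at the middle level and near it at the others, and the difference was not tested. Of 32 other long non-coding RNAs with a LINC number and a mean of at least 50, 12 were called, or 37.5%, with 6 in each direction.

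**Figure D2:**
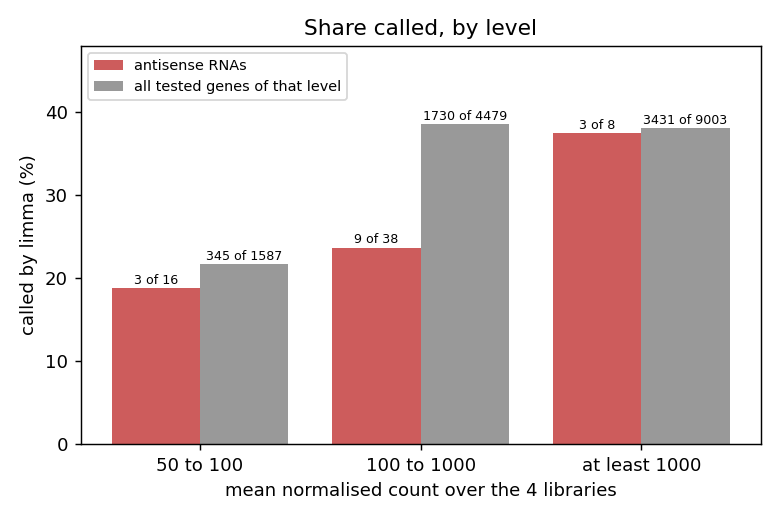
Share of genes called by limma at 3 levels of mean normalised count, for the antisense RNAs (red) and all tested genes of that level (grey), with the counts above the bars and the axis from 0%. The bars are close at both ends and 23.7% against 38.6% in the middle.

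ADIRF-AS1 changed most. It lies on chromosome 10 from 86965345 to 86971311 on the minus strand (GENCODE 29) and crosses ADIRF, which encodes adipogenesis regulatory factor. Its normalised counts were 408 and 374 in vehicle and 1131 and 1234 in octanoate. Both octanoate libraries lay far above both vehicle libraries. The log2 difference was 1.59 with a standard error of 0.09, a 3.02-fold rise (limma adjusted p = 8.65e-13). It was the only antisense RNA of the 62 called with a change of at least 2-fold. It stayed called under each of the 16 alternatives that gave it a test.

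ADIRF itself was listed at 0 reads in all 4 libraries. In GENCODE 29, 91.9% of its 998 exonic bases are covered by exons on the other strand, those of ADIRF-AS1 and AL136982.7. A further gene, AGAP11, overlaps 25.7% on its own strand, and no base of ADIRF is left free. Over 4178 bases of ADIRF-AS1 no other exon is annotated. Protein-coding genes without a same-strand overlap show how coverage and 0 go together in this table. With no base covered by opposite exons, 747 of 10695 were at 0 in every library, or 6.98%. With up to 50% covered it was 55 of 5144, or 1.07%, and with over 50% but not all, 10 of 115, or 8.7%. With every base covered, 15 of 17 were at 0, or 88.2%. ADIRF is in none of these classes because of its same-strand overlap, and by its 91.9% alone it would be in that of over 50% but not all. For ADIRF, absence of RNA and loss of reads shared with the antisense RNA cannot be told apart.

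**Figure D3:**
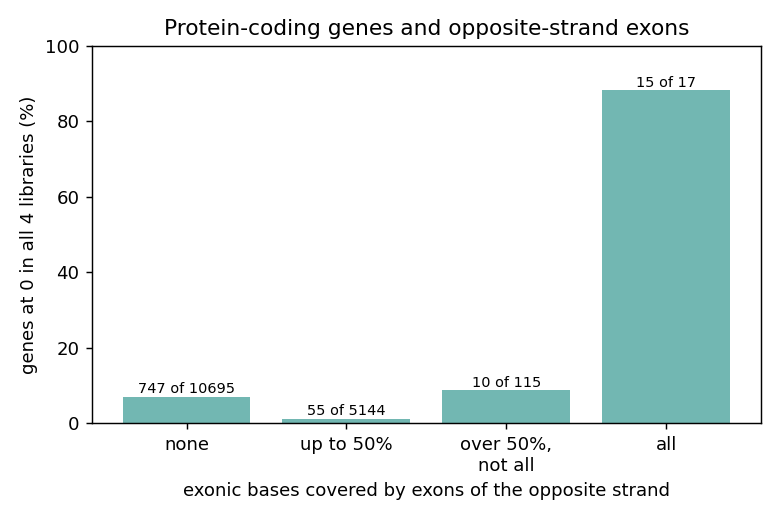
Protein-coding genes with no read in any of the 4 libraries (%), grouped by how much of their exonic sequence is covered by exons on the opposite strand in GENCODE 29. Genes overlapped on their own strand are left out, and counts stand above the bars. Of the fully covered genes 15 of 17 were at 0, against 747 of 10695 with no covered base.

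The promoter window of ADIRF-AS1 is shown because this RNA changed most. It holds 250 bases before to 50 after the RefSeq start, at chr10:86971191-86971490 on the minus strand (GRCh38.p14), printed 5′ to 3′ along that strand. Capitals mark matches to the motifs described next.
ADIRF-AS1: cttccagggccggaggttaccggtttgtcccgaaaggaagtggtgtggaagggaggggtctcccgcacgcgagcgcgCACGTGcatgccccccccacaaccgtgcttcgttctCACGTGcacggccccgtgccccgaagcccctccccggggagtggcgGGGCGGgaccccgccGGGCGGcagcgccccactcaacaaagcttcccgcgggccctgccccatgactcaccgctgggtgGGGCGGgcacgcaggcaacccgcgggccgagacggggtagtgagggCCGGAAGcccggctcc
Short motifs, 6 in all, were searched on both strands, namely the E-box CACGTG, the CARE core TGATGCAA bound by ATF4 with C/EBP partners, the DR1 element AGGTCANAGGTCA bound by PPAR with RXR, the ETS site CCGGAAG, the GC box GGGCGG and the letters CCAAT. The window held 2 E-boxes, 1 ETS site and 3 GC boxes, and no match to the others. Among 34796 RefSeq promoter windows of this length, 7.2% held an E-box, 10.2% the ETS site, 44.9% a GC box, 34.6% CCAAT, 0.871% the CARE core and 0.0172% the DR1 letters. A match describes letters and is not a bound site. The window's GC content was 73.3%, beside a median of 58.7%.

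SERTAD4-AS1 and SERTAD4 fell together. The antisense RNA, on chromosome 1 from 210231456 to 210234047 on the minus strand, starts 173 bases from SERTAD4, which encodes a SERTA domain protein. SERTAD4-AS1 had 665 and 687 normalised counts in vehicle and 384 and 366 in octanoate. It fell by 0.85 on the log2 scale (limma, SE 0.09, adjusted p = 1.37e-07). SERTAD4 had 6094 and 5998 in vehicle and 2094 and 1996 in octanoate, and it fell by 1.56 (SE 0.06, adjusted p = 1.24e-15). Groups of neither gene overlapped, and the host's fall exceeded the antisense RNA's by 0.716. The exons of the pair share 174 bases, which is 17.3% of those of the antisense RNA. Reads within them cannot be told apart without strand.

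GABPB1-AS1, ST3GAL4-AS1 and ZEB1-AS1 rose by similar sizes. GABPB1-AS1, on chromosome 15 from 50354959 to 50372202, had 1720 and 1827 normalised counts in vehicle and 2717 and 2661 in octanoate. That was a log2 difference of 0.60 (limma, SE 0.07, adjusted p = 1.29e-07). Its host GABPB1, the beta subunit of the ETS factor GABP, starts 59 bases away and had 2602 and 2452 in vehicle and 2599 and 2503 in octanoate. The host's groups overlapped, with a log2 difference of 0.01 (adjusted p = 0.899). ST3GAL4-AS1, named GSEC in RefSeq, had 824 and 743 in vehicle and 1156 and 1165 in octanoate, a log2 difference of 0.57 (SE 0.08, adjusted p = 5.67e-06). ST3GAL4, a sialyltransferase, had 15346 ± 1227 in vehicle and 16903 ± 746 in octanoate (mean ± SD, n = 2). Its log2 difference was 0.14 (limma adjusted p = 0.0885).

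ZEB1-AS1 had 202 and 203 normalised counts in vehicle and 313 and 309 in octanoate, a log2 difference of 0.61 (limma, SE 0.12, adjusted p = 0.000269). ZEB1, a zinc finger repressor of epithelial genes, had 4214 and 4229 in vehicle and 4720 and 5097 in octanoate, and rose by 0.22 (SE 0.06, adjusted p = 0.00805). Groups did not overlap in either, but the host was not called without octanoate 2 (adjusted p = 0.152). ZEB1-AS1 shares stretches of up to 122 bases with 12 other genes. ADIRF-AS1, GABPB1-AS1, ST3GAL4-AS1, ZEB1-AS1 and SERTAD4-AS1 were called under every alternative that gave them a test.

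PAX8-AS1 and CEBPA-AS1 rose with their hosts as well. PAX8-AS1 had 1003 and 1036 normalised counts in vehicle and 1275 and 1250 in octanoate, a log2 difference of 0.31 (limma, SE 0.07, adjusted p = 0.00243). PAX8, a paired-box transcription factor of thyroid and kidney, had 134 and 98.8 in vehicle and 184 and 167 in octanoate and rose by 0.60 (SE 0.16, adjusted p = 0.00629). The call on PAX8 was lost without vehicle 2 (log2 difference 0.38, adjusted p = 0.132) and with DESeq2 (adjusted p = 0.0944). Per kilobase of exon the antisense RNA stood 3.35 times as high as its host. CEBPA-AS1 had 64.8 and 42.6 in vehicle and 95.3 and 99.7 in octanoate, a log2 difference of 0.88 (SE 0.21, adjusted p = 0.00299), lost without vehicle 2 (log2 difference 0.58) and with DESeq2 (adjusted p = 0.0715). These were few reads, with 66 and 44 in vehicle and 99 and 92 in octanoate. CEBPA, a leucine zipper factor of fat, liver and myeloid cells, had 90.3 and 46.5 in vehicle and 151 and 86.7 in octanoate. Its groups overlapped, with a log2 difference of 0.81 (SE 0.26, adjusted p = 0.0186), lost without octanoate 1 (log2 difference 0.41) or vehicle 2 (0.34) and with DESeq2 (adjusted p = 0.121). Without vehicle 1 it was 1.28.

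FBXL19-AS1 was the only antisense RNA called in the direction opposite to a called host. It had 356 and 376 normalised counts in vehicle and 468 and 457 in octanoate, and rose by 0.34 (limma, SE 0.10, adjusted p = 0.0116). FBXL19, an F-box protein that binds unmethylated CpG DNA, had 6224 and 5906 in vehicle and 5754 and 5028 in octanoate. Its log2 difference was -0.17 (SE 0.06, adjusted p = 0.0462). Neither change exceeded 1.5-fold. The call on FBXL19-AS1 was lost without octanoate 1, without vehicle 1 and with DESeq2 (adjusted p = 0.1). That on FBXL19 was lost without octanoate 2, vehicle 1 or vehicle 2, with TMM factors (adjusted p = 0.0713) and with DESeq2 (adjusted p = 0.0781).

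The promoter windows of CEBPA-AS1, ZEB1-AS1 and FBXL19-AS1 are shown because both genes of the pair were called and their RefSeq windows share bases. In the other 2 pairs with both called the RefSeq windows share none, as the nearest RefSeq starts lie 1089 bases apart for SERTAD4 and 42652 for PAX8. By GENCODE 29 the nearest starts of these pairs lie 173 and 18 bases apart, so this holds for RefSeq only. All are from RefSeq (GRCh38.p14), 250 bases before to 50 after the start, 5′ to 3′ on the strand of the antisense RNA. They lie at chr19:33302571-33302870 on the plus strand, chr10:31319046-31319345 on the minus strand and chr16:30923220-30923519 on the minus strand. Capitals mark bases that also lie in the host's window on the other strand.
CEBPA-AS1: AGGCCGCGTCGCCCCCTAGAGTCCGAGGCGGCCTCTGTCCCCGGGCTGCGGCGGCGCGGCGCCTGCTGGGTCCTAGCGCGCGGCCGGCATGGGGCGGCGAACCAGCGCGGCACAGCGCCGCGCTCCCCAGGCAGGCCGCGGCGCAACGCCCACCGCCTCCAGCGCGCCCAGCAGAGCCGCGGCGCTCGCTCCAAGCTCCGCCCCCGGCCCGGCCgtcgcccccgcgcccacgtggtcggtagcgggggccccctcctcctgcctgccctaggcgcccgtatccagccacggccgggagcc
ZEB1-AS1: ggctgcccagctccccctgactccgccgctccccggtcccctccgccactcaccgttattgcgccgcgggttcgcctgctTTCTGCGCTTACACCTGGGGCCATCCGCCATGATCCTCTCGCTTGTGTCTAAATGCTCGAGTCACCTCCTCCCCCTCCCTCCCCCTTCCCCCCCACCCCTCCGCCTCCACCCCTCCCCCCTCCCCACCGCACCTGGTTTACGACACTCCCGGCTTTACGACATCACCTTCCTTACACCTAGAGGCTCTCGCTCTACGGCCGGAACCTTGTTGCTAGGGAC
FBXL19-AS1: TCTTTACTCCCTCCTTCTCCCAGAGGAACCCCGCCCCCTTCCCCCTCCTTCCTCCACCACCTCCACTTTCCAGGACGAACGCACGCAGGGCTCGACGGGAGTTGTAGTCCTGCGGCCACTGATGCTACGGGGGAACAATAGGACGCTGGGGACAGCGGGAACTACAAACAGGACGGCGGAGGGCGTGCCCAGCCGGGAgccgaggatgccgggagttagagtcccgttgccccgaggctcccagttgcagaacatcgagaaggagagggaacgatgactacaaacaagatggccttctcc
The windows of CEBPA-AS1 and CEBPA share 214 bases with starts 287 bases apart. Those of ZEB1-AS1 and ZEB1 share 220 with starts 121 apart, and those of FBXL19-AS1 and FBXL19 share 198 with starts 303 apart. Where RefSeq gives several starts for a gene, the windows that share most bases were chosen. The nearest RefSeq starts of these pairs lie 287, 107 and 214 bases apart. The windows shown had a GC content of 81.0%, 65.7% and 62.0%. Of the 6 motifs, CEBPA-AS1 held 1 E-box and 2 GC boxes, FBXL19-AS1 held 1 GC box and ZEB1-AS1 held none. The calls went in the same direction for CEBPA and ZEB1 and in opposite directions for FBXL19. These pairs were chosen by their calls, so nothing about shared sequence follows from the directions.

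ZFHX4-AS1 and TSPEAR-AS2 rose with no call on their hosts. ZFHX4-AS1 had 294 and 218 normalised counts in vehicle and 356 and 329 in octanoate, a log2 difference of 0.43 (limma, SE 0.13, adjusted p = 0.0123). ZFHX4, a zinc finger homeobox factor, had a log2 difference of -0.08 (adjusted p = 0.446). TSPEAR-AS2 had 248 and 182 in vehicle and 273 and 281 in octanoate, a log2 difference of 0.38 (SE 0.14, adjusted p = 0.0365). TSPEAR had 45.6 normalised counts on average and a log2 difference of -0.11 (adjusted p = 0.798). In both antisense RNAs vehicle 2 was the lowest library. Without vehicle 2 the differences were 0.22 and 0.16, and without vehicle 1 they were 0.65 and 0.60. Without vehicle 2 neither was called, nor was either without octanoate 1 or with DESeq2 (adjusted p = 0.109 and 0.223). TSPEAR-AS2 was also lost without octanoate 2.

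A further 5 antisense RNAs fell. BAIAP2-AS1 had 1514 and 1367 normalised counts in vehicle and 1269 and 1147 in octanoate, a log2 difference of -0.25 (limma, SE 0.08, adjusted p = 0.0142). TPT1-AS1 had 734 and 748 in vehicle and 609 and 607 in octanoate, a log2 difference of -0.28 (SE 0.08, adjusted p = 0.0123). LPP-AS2 had 162 and 163 in vehicle and 136 and 109 in octanoate, a log2 difference of -0.41 (SE 0.15, adjusted p = 0.046, and 0.0512 with edgeR). The groups of these 3 did not overlap, nor did those of PTOV1-AS1 and CIRBP-AS1 below. The changes of these 3 were small beside that of SERTAD4-AS1. PTOV1-AS1 had 74.6 and 72.7 in vehicle and 57.8 and 34.7 in octanoate, a log2 difference of -0.70 (SE 0.24, adjusted p = 0.0297). CIRBP-AS1 had 58.9 and 68.8 in vehicle and 33.7 and 42.3 in octanoate, a log2 difference of -0.74 (SE 0.24, adjusted p = 0.0221). Octanoate 2 held 32 reads of PTOV1-AS1 and 39 of CIRBP-AS1, so both rest on few reads.

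The hosts of these 5 were not called. TPT1, the translationally controlled tumour protein, had 79347 ± 3309 normalised counts in vehicle and 82175 ± 3393 in octanoate (mean ± SD, n = 2). Its log2 difference was 0.05, and so was that of CIRBP, a cold-inducible RNA-binding protein, and of LPP, a LIM protein of cell adhesions. PTOV1 had 0.08 and BAIAP2, an adaptor that acts on the actin skeleton, -0.07. Adjusted p-values of these 5 hosts lay between 0.456 and 0.645 (limma), and their groups overlapped. The calls on the 5 antisense RNAs were lost with DESeq2, which gave adjusted p-values from 0.0544 to 0.283. The authors' deposited table gave BAIAP2-AS1 an adjusted p of 0.0493. They also depended on single libraries. BAIAP2-AS1 was lost without octanoate 2 or vehicle 1, and CIRBP-AS1 without octanoate 1 or vehicle 2. TPT1-AS1, LPP-AS2 and PTOV1-AS1 were lost without octanoate 2, vehicle 1 or vehicle 2. Without octanoate 2 the difference of PTOV1-AS1 was -0.34 and that of LPP-AS2 -0.26, while without octanoate 1 that of PTOV1-AS1 was -1.06.

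**Figure D4:**
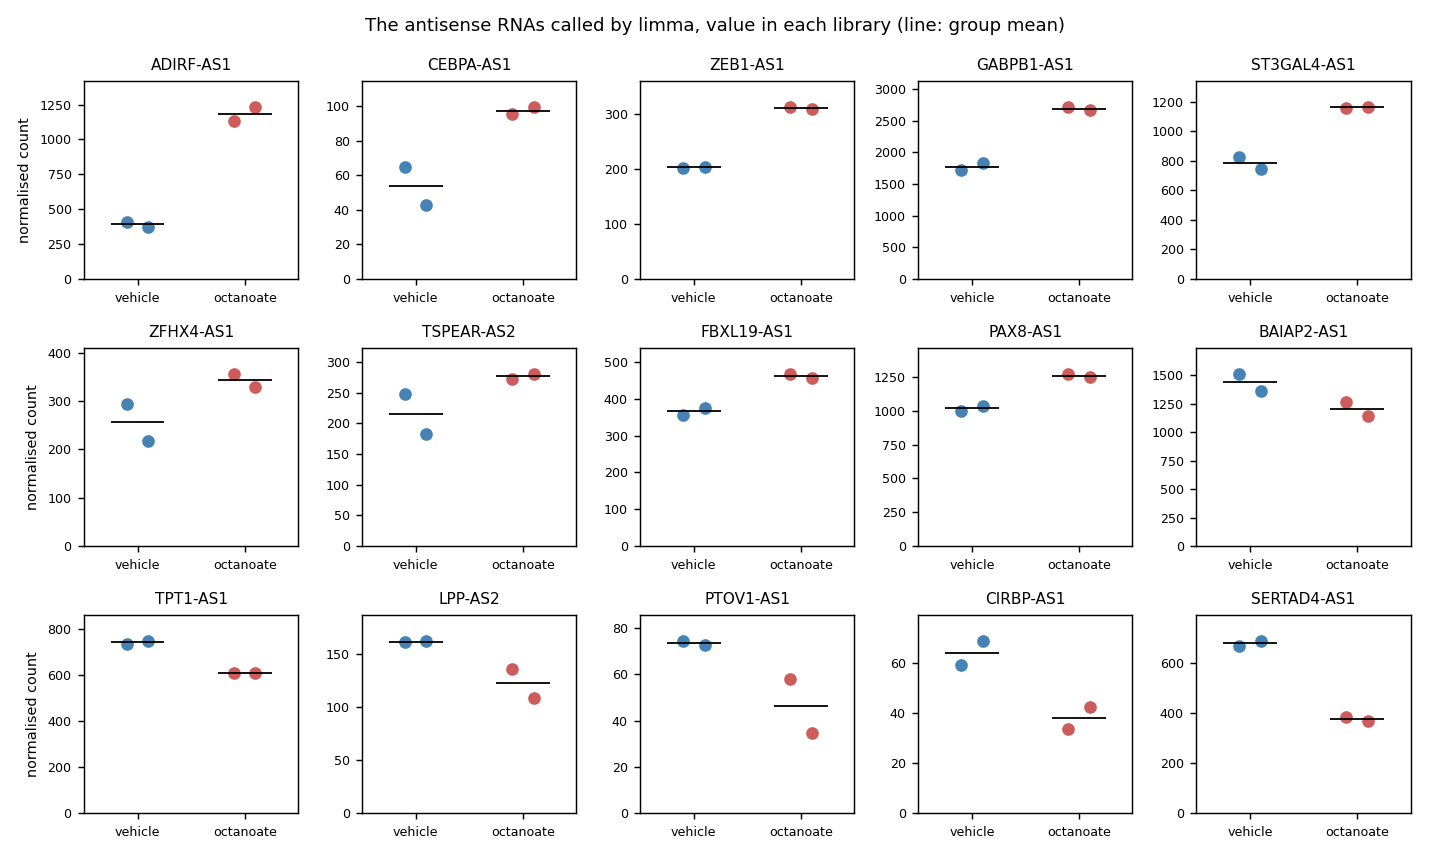
Normalised counts in each library for the 15 antisense RNAs called by limma, with vehicle in blue, octanoate in red and the mean of each group of 2 libraries as a line. Every vertical axis starts at 0 and has its own range. In no panel do the groups overlap, from 408 and 374 against 1131 and 1234 for ADIRF-AS1 to 665 and 687 against 384 and 366 for SERTAD4-AS1. The panels were chosen by calls on these same values. Groups did not overlap in 68.4% of all tested genes with a mean of at least 50.

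Of the 8 antisense RNAs with the highest means, GABPB1-AS1, PAX8-AS1 and BAIAP2-AS1 were called, as described above, and the other 5 were not. LRRC75A-AS1 had 27152 and 25685 normalised counts in vehicle and 29421 and 27312 in octanoate, a log2 difference of 0.10 (limma, SE 0.06, adjusted p = 0.208). OIP5-AS1 had 8420 and 8545 in vehicle and 9132 and 8907 in octanoate, a log2 difference of 0.09 (SE 0.06, adjusted p = 0.251). In both, the octanoate libraries lay above the vehicle libraries by less than the test required. EPB41L4A-AS1 had a log2 difference of -0.17 (adjusted p = 0.086), CTBP1-AS1 of 0.04 (adjusted p = 0.73) and COX10-AS1 of 0.18 (adjusted p = 0.0665). COX10, which makes the haem of cytochrome oxidase and starts beside COX10-AS1 on the other strand, had 0.15 (adjusted p = 0.0727). TP73-AS1 had a log2 difference of 0.08 (adjusted p = 0.488), with its host TP73, a p53 family member, at -0.23 (adjusted p = 0.0448), a call lost without octanoate 1, octanoate 2 or vehicle 1. EPB41L4A-AS1 was called without vehicle 2 (adjusted p = 0.0311), with equal column totals (0.0398), with GC and length trends removed (0.0421) and with the replicate block (0.00746).

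None of the 6 antisense RNAs of the HOX clusters was called, beside 36.5% of all tested genes with a mean of at least 50. Groups did not overlap in 3 of the 6, all 3 lower in octanoate, beside 68.4% of the tested genes at that level. HOX genes encode the body-axis transcription factors. The symbols of the 6 antisense RNAs name a cluster, so no host row was paired with them. RefSeq lists HOXC-AS5 as HOXC13-AS, after the single gene HOXC13. Log2 differences of the 6 ran from -0.19 for HOXC-AS5, named after its value was seen, to 0.18 for HOXC-AS1, with a median of -0.084. HOXA-AS2 had 139 and 142 normalised counts in vehicle and 126 and 128 in octanoate (limma adjusted p = 0.499). HOXC-AS1 had 70.7 and 109 in vehicle and 99.1 and 99.7 in octanoate (adjusted p = 0.536).

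Across the 54 pairs with a tested host, both were called in 5, the antisense RNA alone in 9, the host alone in 16 and neither in 24. Of the 54 hosts, 21 were called, or 38.9%, near the background, with 11 higher and 10 lower. In 30 of the 54 pairs the 2 differences had the same sign. Across pairs Pearson's r was 0.34 and Spearman's rank correlation 0.13, and without the SERTAD4 pair they were 0.17 and 0.08. These describe pairs that share the same 4 libraries and are no test. Of the 5 pairs with both called, 4 moved in the same direction (SERTAD4, CEBPA, ZEB1 and PAX8) and 1 in opposite directions (FBXL19).

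**Figure D5:**
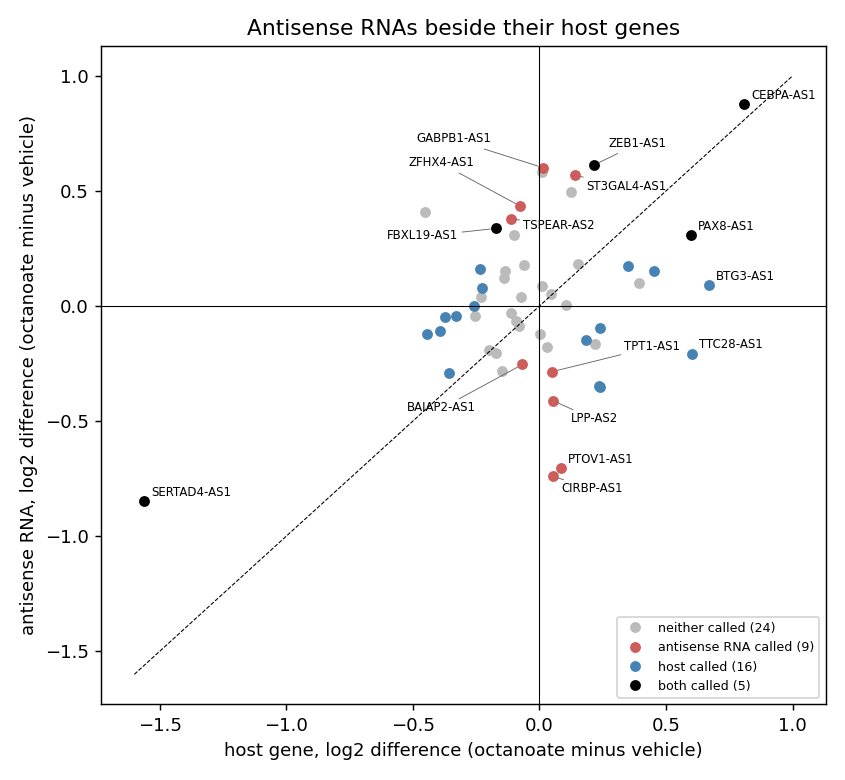
Log2 difference of octanoate from vehicle for 54 antisense RNAs (vertical) against that of the host (horizontal), both on the log2(normalised count + 1) scale, with a dashed line of equality. Colours give which of the pair limma called: both in 5, antisense RNA alone in 9, host alone in 16, neither in 24. Most points spread along one axis or the other, and SERTAD4 with SERTAD4-AS1 lies far to the lower left.

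Among the hosts called alone were BTG3, TTC28, FRMD6 and GNAS, the last 3 and their antisense RNAs chosen after their values were seen. BTG3, an antiproliferative protein, had 1959 and 1781 normalised counts in vehicle and 3002 and 2940 in octanoate, and rose by 0.67 (limma, SE 0.07, adjusted p = 2.91e-08). BTG3-AS1 had 49.1 and 52.3 in vehicle and 53.9 and 54.2 in octanoate, a log2 difference of 0.09 (SE 0.23, adjusted p = 0.807). The host rose, and the antisense RNA, with 50 reads in vehicle 1, had a standard error larger than its difference. TTC28 rose by 0.60 (adjusted p = 9.14e-05), while TTC28-AS1 had a log2 difference of -0.21 (adjusted p = 0.203). FRMD6, a FERM protein of the Hippo pathway, fell by 0.44 (adjusted p = 1.65e-06), and FRMD6-AS1 had -0.12 (adjusted p = 0.63). GNAS, the stimulatory G protein alpha subunit, had 139147 ± 12307 in vehicle and 115992 ± 4406 in octanoate (mean ± SD, n = 2). It fell by 0.26 (limma adjusted p = 0.00662), a call lost without octanoate 2 (adjusted p = 0.113) or vehicle 1 (adjusted p = 0.0909). GNAS-AS1 had 129 and 140 in vehicle and 129 and 139 in octanoate, and its groups overlapped.

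In 46 of the 54 pairs both genes had a gene model in GENCODE 29 under the symbols of the table. Their exons overlapped in 37, and 10 of these 37 antisense RNAs were called. A further 6 lay head to head without exon overlap, with 1 called (ZFHX4-AS1). In the other 8 pairs exons were not compared, so overlap may be present. GENCODE lists ZNF503 exons across ZNF503-AS2, for example, and exons of CTBP1-DT, the RefSeq name of CTBP1-AS1, across CTBP1. By RefSeq starts 6 of these 8 lay head to head, with 2 called (CEBPA-AS1 and BAIAP2-AS1). Beside these counts, 36.5% of all tested genes with a mean of at least 50 were called, and 24.2% of the 62 antisense RNAs. The arrangements were not compared by a test. Of the 5 pairs in which both were called, 4 had overlapping exons, and the CEBPA pair was not compared. Per kilobase of exon, the host stood higher in 34 of 46 pairs and the antisense RNA in 12. The median ratio of antisense RNA to host per kilobase was 0.26. It ran from 0.00382 for GNAS-AS1 to 288 for LRRC75A-AS1, whose host LRRC75A averaged 93.5 normalised counts. EPB41L4A-AS1 stood at 57.9, TSPEAR-AS2 at 7.97 and SERTAD4-AS1 at 0.708 times its host per kilobase.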

How the data were processed

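The deposited table gives for each of 56832 genes and 4 libraries a normalised count, a signal that per the file name is a count divided by a DESeq2 size factor. Per the submitters' processing notes, bcl2fastq 2.17, Trim Galore, STAR 2.4, Picard, HTSeq 0.9.1, DESeq2 and build hg38 were used. The annotation and whether counting used strand are not given in the sources used here, and the labels name the NEBNext Ultra RNA kit. The authors' deposited table of 33533 genes gives each gene's mean signal, its log2 fold change (standard error included), a score from the test, the p-value and the adjusted p-value.

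Differences were fitted with limma 3.58.1 (R 4.3.3) on log2(normalised count + 1), which understates changes of low genes, with an intensity trend. The 20250 genes with a mean of at least 10 were tested, two-sided, with Benjamini-Hochberg adjustment, and called at an adjusted p under 0.05. A permutation of 2 libraries against 2 cannot give less than p = 0.333, and none was run. Every deposited value was a whole multiple of its library's step (100% within 0.02), and the whole reads so recovered were tested with edgeR 4.0.16, which called 6480 genes, and with DESeq2 1.42.0, which called 4221. Scripts were tested on simulated data. Gene models came from GENCODE 29 and promoter windows from RefSeq (GRCh38.p14), and none of their coordinates are the authors'.

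The antisense RNAs, lists and tests were chosen with earlier results of these data known. Named were the 8 highest means, called RNAs without overlap (up to 8 each way), pairs with both called, a list of antisense RNAs with known roles, the 3 rows either side of the limit, and their hosts. Alternatives were pseudocounts of 0.5 and 5, other filters, scalings and tests, removal of the intensity trend, a replicate block, leaving out each library, and a mean of 30 or 100 in place of 50. An antisense RNA that met the rule is counted but not reported here by name.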

Additional observations from a re-analysis of the deposited data

How the results depend on the processing

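The count of 15 antisense RNAs was 6 with DESeq2, 6 with no filter on low values and 5 with no intensity trend; the 21 hosts became 7 and 4 under the last 2, and the 6048 genes 2595 and 1625. Leaving out 1 library gave fewer called antisense RNAs, hosts and genes. Each such fit lost some of the 15 antisense RNAs. All of these fits but that without octanoate 1 also called antisense RNAs outside the 15. The median of -0.017 became -0.002 with TMM factors, -0.032 over genes with an annotated transcript, -0.07 with GC content and length trends removed, 0.039 and -0.045 with the mean at 30 or 100, and -0.019 to 0.011 without 1 library, turning positive without vehicle 2. The cause was not tested. The GC and length check covered only the 74.8% of tested genes that had values, so it says nothing of the rest. Under it 2933 genes were higher and 4026 lower, against 2865 and 2577 for the same genes without it and 3271 and 2777 as reported. It called 7 antisense RNAs each way, with 11 of them among the 15 and 3 not. The split of antisense RNAs, 9 higher and 6 lower, was 5 and 1 with DESeq2 and 9 and 2 without vehicle 1. Of 52 antisense RNAs and hosts recomputed, 8 had the other sign under at least 1 alternative (CTBP1-AS1, HOXC-AS1, FRMD6-AS1, OIP5, GABPB1, TSPEAR, PTOV1 and LPP), and none of these was called; the 25 called ones kept their sign under the alternatives run. HOXC-AS1 went from 0.18 to -0.12 and TSPEAR from -0.11 to 0.29 without vehicle 1. Labels do not say what replicate numbers mark. Across the 20250 tested genes, the log2 difference of vehicle 1 from vehicle 2 correlated at 0.126 with that of octanoate 1 from octanoate 2. With the number as a replicate block 21 antisense RNAs (14 higher, 7 lower), 28 hosts and 8376 genes were called. Low depth limits RNAs near 50 reads, whose standard errors reached 0.24.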
